A study of Homo sapiens with 12 samples.

Results

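NRF2, the protein of NFE2L2, is the transcription factor through which cells answer oxidants and electrophiles, and its set here comprises 10 genes: NFE2L2 itself, its inhibitor KEAP1, and the 8 target enzymes HMOX1, NQO1, GCLC, GCLM, SRXN1, TXNRD1, TXN and ME1. These genes were chosen by name and matched by Ensembl ID, 1 gene each, among the 62702 genes of the count table. Of the 10, 9 passed the filter on low counts and were tested, and SRXN1 had no count in any library. KEAP1 holds NRF2 in the cytoplasm and hands it to a CUL3 and RBX1 ubiquitin ligase. Oxidants modify cysteines of KEAP1, NRF2 then escapes destruction, pairs with a small MAF protein and binds the antioxidant response element (ARE) of its target genes. Most of this control acts on the NRF2 protein, which RNA does not measure. In the kidney NRF2 defends tubule cells against oxidants, and renal carcinomas that lack fumarate hydratase are known for stabilised NRF2.

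RNA was measured by BRB-seq, which reads polyadenylated RNA from its 3′ end, in 12 libraries of 786-O, a human clear cell renal cell carcinoma line without working VHL, so that HIF2A escapes its usual destruction. The 4 groups have 3 libraries each. shHIF2A carries inducible shRNA against HIF2A (gene EPAS1), shJUNs against JUN, JUNB and JUND, subunits of AP-1, shYAPTAZ against YAP and TAZ (genes YAP1 and WWTR1), and the parental line is the one the others are set against. All 4 lines, parental included, received doxycycline for 72 hours. Selection of the shRNA lines used puromycin, blasticidin or hygromycin, according to the number of silenced genes. Each group is 1 line, its 3 libraries are labelled technical replicates, and a control shRNA line was not analysed here. A knockdown therefore cannot be told apart from other differences between a line and its parent, and the p-values measure only the spread between these libraries.

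Libraries held between 2272459 and 4469956 counts, at which 3 counts equal 0.67 to 1.32 CPM (counts scaled to a common library size). EPAS1 lay between 11.9 and 18.6 CPM in shHIF2A, against 148 to 267 CPM in parental cells. JUND lay between 34.2 and 42.02 CPM in shJUNs, against 310.3 to 390.2 CPM in parental cells, and JUN between 78.1 and 93.0, against 137 to 172. JUNB was 103 to 125 CPM in shJUNs and 97.0 to 266 CPM in parental cells, which overlap, and it was called 1.70-fold lower (adjusted p = 0.034). YAP1 lay between 10.2 and 21.8 CPM in shYAPTAZ, against 58.2 to 71.2 CPM in parental cells, and WWTR1 between 143 and 169, against 239 to 369. Targeted genes were also called against parental cells in lines that do not target them: EPAS1 lower in shJUNs and shYAPTAZ, JUN lower in shHIF2A, JUND lower in shHIF2A and shYAPTAZ, and WWTR1 higher in shHIF2A and shJUNs. All 10 renal carcinoma markers were detected in every group (mean PAX8 of 88.9 to 101 CPM, PAX2 of 5.75 to 12.7 CPM), and 3 to 6 of them were called different from parental cells in each knockdown. Of 10 blood and endothelial markers, 7 were at 0 counts in all 12 libraries and the other three had 30 (HBB), 4 (VWF) and 1 (PTPRC).

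Promoter sequence of the members shows where the ARE stands next to each RNA start. The RefSeq promoter table (GRCh38.p14, the assembly of the hg38 build used for the counts) held 9 of the 10 members in 12 windows of 300 bases, 250 before and 50 after an annotated start. HMOX1 is not in that table. The core letters of the ARE, TGACNNNGC on either strand, occurred in 4 members, GCLM, KEAP1, ME1 and TXNRD1, with 8 matches in 5 windows. In the table as a whole, 13.3% of 35116 windows held a match, and over all 27305 genes 16.1%. The 250 bases before the start are given for these 5 windows, as the promoters that carry the core, and for NQO1, whose window has none and which differed most from parental cells among the members in shYAPTAZ. Capitals mark the ARE core, and each sequence reads 5′ to 3′ on the strand of the gene.
GCLM, chr1:93909431-93909680, minus strand: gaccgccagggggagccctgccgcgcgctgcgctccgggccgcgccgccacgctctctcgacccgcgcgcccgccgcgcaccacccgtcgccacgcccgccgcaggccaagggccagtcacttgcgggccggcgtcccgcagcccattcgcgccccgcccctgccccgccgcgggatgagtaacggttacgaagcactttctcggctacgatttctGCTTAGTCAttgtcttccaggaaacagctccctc
KEAP1, second start, chr19:10502772-10503021, minus strand: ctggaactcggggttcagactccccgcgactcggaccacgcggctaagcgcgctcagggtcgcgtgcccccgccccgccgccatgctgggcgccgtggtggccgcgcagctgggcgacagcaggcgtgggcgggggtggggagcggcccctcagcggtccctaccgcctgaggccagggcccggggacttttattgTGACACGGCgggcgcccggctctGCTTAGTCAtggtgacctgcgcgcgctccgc
ME1, chr6:83431052-83431301, minus strand: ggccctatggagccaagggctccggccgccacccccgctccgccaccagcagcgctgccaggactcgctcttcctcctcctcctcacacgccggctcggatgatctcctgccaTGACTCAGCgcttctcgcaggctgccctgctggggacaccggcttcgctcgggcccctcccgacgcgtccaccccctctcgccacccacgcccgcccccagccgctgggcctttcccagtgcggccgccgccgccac
TXNRD1, first start, chr12:104215529-104215778, plus strand: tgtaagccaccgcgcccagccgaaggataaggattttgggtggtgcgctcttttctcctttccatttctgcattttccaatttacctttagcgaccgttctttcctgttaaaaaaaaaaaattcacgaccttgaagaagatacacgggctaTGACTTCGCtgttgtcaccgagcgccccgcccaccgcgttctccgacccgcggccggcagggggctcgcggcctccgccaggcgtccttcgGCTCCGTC
TXNRD1, second start, chr12:104286782-104287031, plus strand: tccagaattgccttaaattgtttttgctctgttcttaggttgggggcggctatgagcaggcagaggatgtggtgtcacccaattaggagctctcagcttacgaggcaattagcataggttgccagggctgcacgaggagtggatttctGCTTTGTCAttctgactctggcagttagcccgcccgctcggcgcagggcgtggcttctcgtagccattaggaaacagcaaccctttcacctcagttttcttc
NQO1, chr16:69726561-69726810, minus strand: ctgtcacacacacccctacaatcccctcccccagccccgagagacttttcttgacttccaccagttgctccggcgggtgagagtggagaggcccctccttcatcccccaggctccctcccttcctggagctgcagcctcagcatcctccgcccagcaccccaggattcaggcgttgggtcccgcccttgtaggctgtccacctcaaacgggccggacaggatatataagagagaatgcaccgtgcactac

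Counted from the RNA start, with -1 the last base before it and 1 its first base, the core of GCLM spans -34 to -26 and reads TGACTAAGC on the opposite strand. KEAP1 carries the same letters at -31 to -23 of its second start, and TGACACGGC at -54 to -46. In ME1 the core at -137 to -129 reads TGACTCAGC. Its first 7 bases, TGACTCA, are also the one match in the set to the AP-1 motif TGANTCA, a motif held by 7.71% of all windows, so that in ME1 both motifs share their bases. A second ME1 core lies after the start, at 12 to 20, outside the stretch shown. The first start of TXNRD1 has TGACTTCGC at -99 to -91 and, on the opposite strand, TGACGGAGC from -8 to 1, whose base at 1 is not shown. Its second start has TGACAAAGC at -102 to -94, also on the opposite strand. NQO1, GCLC, NFE2L2, TXN and SRXN1 had no core in these windows. The response element known for NQO1 lies further upstream than the window reaches, so the absence of the letters says nothing of the gene's control.

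Other motifs of the factors silenced here were searched in the same way. Of the hypoxia response letters, GCGTG occurred in all 9 members with a window, against 40.6% of all genes. It stood in 10 of 12 windows and 22 times, against 36.5% of all windows. ACGTG occurred in none, against 24.9% of all genes and 21.4% of all windows. The base composition of the windows was not taken into account. The TEAD motif GGAATG, through which YAP and TAZ are brought to DNA, occurred in SRXN1 alone, at -51 to -46, against 16.7% of all genes and 14.03% of all windows. Each match is a run of letters and not a measured binding site.

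**Figure D1:**
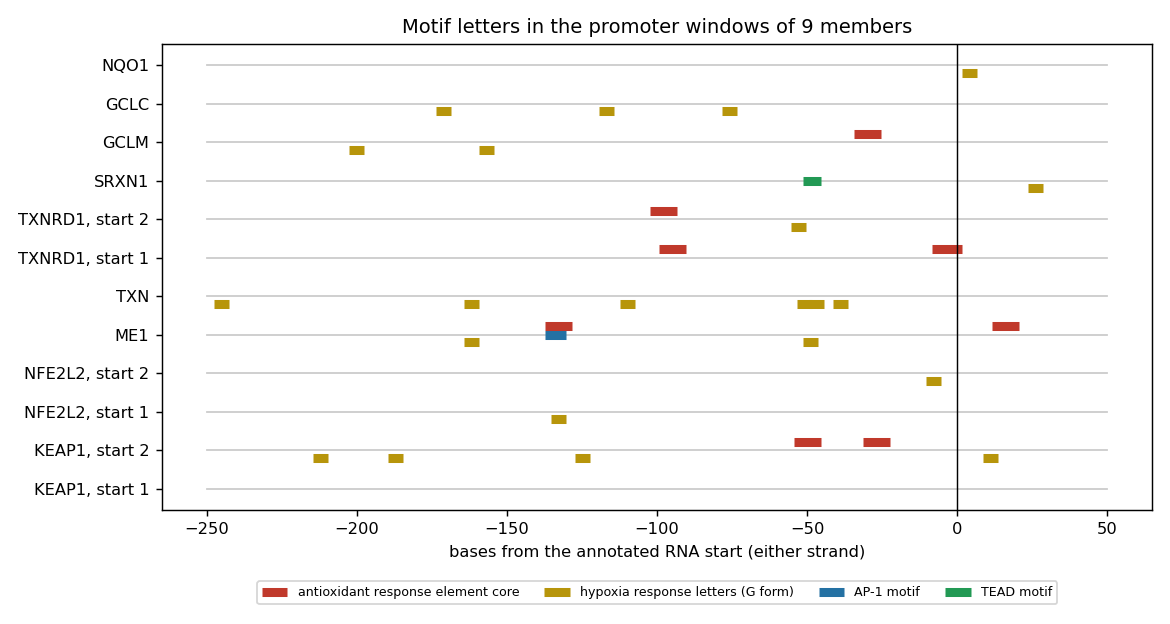
Positions of the searched motifs in the promoter windows of 9 members; the horizontal axis is the distance in bases from the annotated RNA start, each row is 1 window, and coloured blocks are matches on either strand. ARE cores stand in 5 of the 12 rows, and in ME1 the AP-1 block lies within an ARE block at -137.

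NFE2L2 encodes NRF2 (ENSG00000116044, chromosome 2, 177218667 to 177392756, minus strand). Its level in replicates 1 to 3 was 279, 247 and 293 CPM in shHIF2A, 326, 242 and 257 in shJUNs, 366, 355 and 284 in shYAPTAZ and 266, 213 and 218 in parental cells. All shYAPTAZ libraries stood above all parental ones, while those of shHIF2A and shJUNs overlapped the parental range. Means were 273 ± 23.3 in shHIF2A, 275 ± 44.6 in shJUNs, 335 ± 44.6 in shYAPTAZ and 232 ± 29.1 CPM in parental cells (SD, n = 3 each). NFE2L2 rose in shYAPTAZ, 1.44-fold (log2 change 0.53 ± 0.15 SE, edgeR adjusted p = 0.0124). This did not hold without shYAPTAZ replicate 2 (adjusted p = 0.0570) or parental replicate 2 (0.0655). For shHIF2A the log2 difference was 0.23 (95% interval -0.06 to 0.53, adjusted p = 0.302) and for shJUNs 0.25 (-0.05 to 0.54, adjusted p = 0.28). No pair of knockdowns passed the test for this gene. As in every bulk sample, a change in all cells and a change in some of the cells cannot be told apart. NFE2L2 shares 23.4% of its exon bases with HNRNPA3 on the opposite strand, which had 6989 counts over the 12 libraries, against 11500 for NFE2L2. The sources used here do not say whether the counting used strand, so reads of these genes may not be separated.

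KEAP1, the inhibitor, lies on chromosome 19 (ENSG00000079999, 10486125 to 10503558, minus strand). Its libraries read 77.7, 92.9 and 114 CPM in shHIF2A, 57.02, 63.02 and 60.1 in shJUNs, 54.5, 62.1 and 79.8 in shYAPTAZ and 73.3, 66.9 and 71.2 in parental cells. Every shHIF2A value was above, and every shJUNs value below, the parental values, and shYAPTAZ straddled them. On average KEAP1 stood at 94.9 ± 18.3 in shHIF2A, 60.1 ± 3.00 in shJUNs, 65.4 ± 12.97 in shYAPTAZ and 70.5 ± 3.25 CPM in parental cells. KEAP1 differed among the 4 groups (adjusted p = 0.0309) without passing the test in any knockdown against parental cells (adjusted p = 0.118 in shHIF2A, 0.439 in shJUNs and 0.754 in shYAPTAZ). It was lower in shJUNs than in shHIF2A, 1.58-fold (log2 difference -0.66 ± 0.19 SE, adjusted p = 0.0341). That call was lost with thinned counts (0.0723) and without parental replicate 2 (0.0502), shHIF2A replicate 2 (0.0964) or 3 (0.172), or shJUNs replicate 1 (0.142), 2 (0.0950) or 3 (0.116). Between shYAPTAZ and shHIF2A the log2 difference was -0.53 (adjusted p = 0.0566). That difference passed with DESeq2 (0.0488), without shHIF2A replicate 1 (0.0361) and without shYAPTAZ replicate 3 (0.0182).

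**Figure D2:**
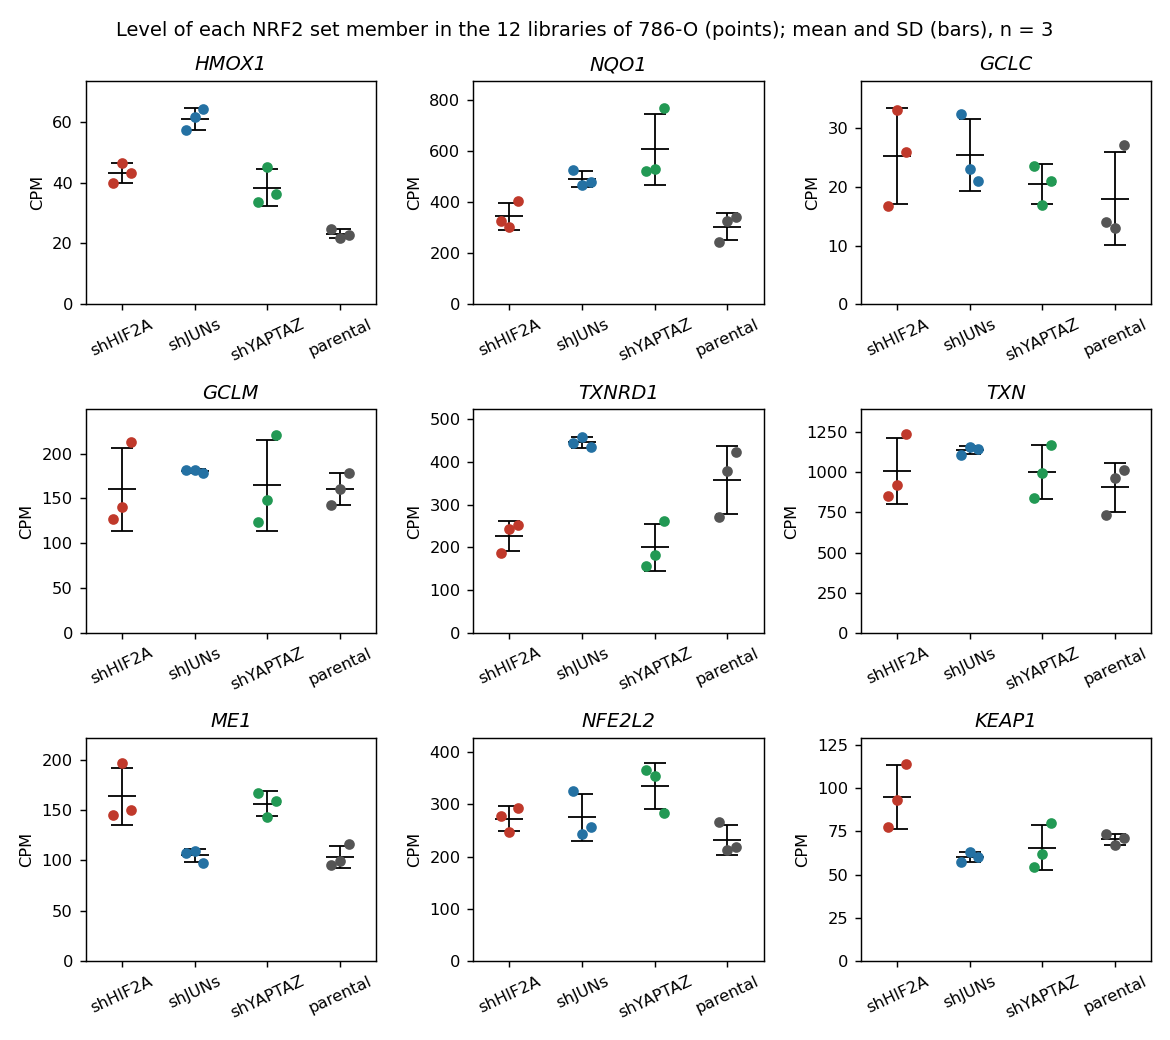
Level in CPM of each NRF2 set member with counts, 1 panel a gene, with groups in the order shHIF2A, shJUNs, shYAPTAZ and parental; points are libraries and bars the mean with SD (n = 3). All shRNA libraries of HMOX1 stand above its parental ones, and TXNRD1 is below its parental libraries in shHIF2A and shYAPTAZ and above them in shJUNs.

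HMOX1 encodes heme oxygenase 1, the inducible enzyme that opens the heme ring into biliverdin, iron and carbon monoxide (ENSG00000100292, chromosome 22, 35380361 to 35394214, plus strand). It was higher in all 3 knockdown lines than in parental cells. The libraries had 40.00, 46.5 and 43.1 CPM in shHIF2A, 57.2, 61.4 and 64.4 in shJUNs, 33.6, 45.2 and 36.1 in shYAPTAZ and 24.8, 21.9 and 22.9 in parental cells. The lowest knockdown library, a shYAPTAZ one, was above the highest parental library. Averaged over 3 libraries, HMOX1 was at 43.2 ± 3.24 in shHIF2A, 61.01 ± 3.58 in shJUNs, 38.3 ± 6.11 in shYAPTAZ and 23.2 ± 1.45 CPM in parental cells. Relative to parental cells HMOX1 was 1.86-fold higher in shHIF2A (log2 change 0.90 ± 0.21 SE, adjusted p = 0.00498). In shJUNs it was 2.63-fold higher (1.40 ± 0.21, adjusted p = 5.91e-05), and in shYAPTAZ 1.66-fold (0.73 ± 0.21, adjusted p = 0.015). The rises in shHIF2A and shJUNs passed with each library left out in turn. The rise in shYAPTAZ was lost in a fit of those 6 libraries alone (adjusted p = 0.0686) and without parental replicate 2 (0.0553) or shYAPTAZ replicate 2 (0.0826).

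The order of the HMOX1 levels was shJUNs, shHIF2A, shYAPTAZ and parental. Between shJUNs and shHIF2A the libraries did not overlap, yet the log2 difference of 0.50 (95% interval 0.10 to 0.90) did not pass (adjusted p = 0.15). The neighbours shYAPTAZ and shHIF2A overlapped, with a log2 difference of -0.17 (-0.58 to 0.24, adjusted p = 0.631). HMOX1 was 1.59-fold lower in shYAPTAZ than in shJUNs (adjusted p = 0.0274). This call ended with no filter on low counts (0.0625), with thinned counts (0.0622), and without shYAPTAZ replicate 1 (0.0812) or 3 (0.0664) or shJUNs replicate 1 (0.0589), 2 (0.0744) or 3 (0.0981).

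NQO1 encodes the quinone reductase, which takes quinones to hydroquinones in a single step of 2 electrons and is a standard readout of NRF2 (ENSG00000181019, chromosome 16, 69706996 to 69726668, minus strand; promoter printed above). Libraries of shHIF2A had 327, 303 and 404 CPM, those of shJUNs 523, 465 and 479.8, those of shYAPTAZ 522, 530.4 and 768 and parental ones 242, 327 and 339. Every shJUNs and shYAPTAZ library stood above every parental one, with shYAPTAZ replicate 3 the highest of all, while shHIF2A and parental libraries overlapped. Group means of NQO1 were 345 ± 52.6 in shHIF2A, 489 ± 30.4 in shJUNs, 607 ± 139 in shYAPTAZ and 303 ± 53.2 CPM in parental cells. NQO1 rose 2.01-fold in shYAPTAZ (log2 change 1.00 ± 0.16 SE, adjusted p = 8.03e-05) and 1.62-fold in shJUNs (0.69 ± 0.16, adjusted p = 0.00383). Both calls passed with each library left out in turn, at adjusted p of up to 0.000587 and 0.0252. In shHIF2A the log2 difference from parental cells was 0.19 (95% interval -0.13 to 0.50, adjusted p = 0.452).

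NQO1 levels ran shYAPTAZ, shJUNs, shHIF2A and parental from high to low. The pair shYAPTAZ and shJUNs overlapped (log2 difference 0.31, adjusted p = 0.204). NQO1 was 1.76-fold higher in shYAPTAZ than in shHIF2A (adjusted p = 0.000975). Between shJUNs and shHIF2A the libraries did not overlap, and the log2 difference of 0.51 missed the threshold (adjusted p = 0.0563). It passed with DESeq2 (0.0439), limma-voom (0.0380), no filter (0.0126), a filter at 10 CPM (0.0460), thinned counts (0.0476), a fit of the 6 libraries (0.00208), and without parental replicate 1 (0.0260), shHIF2A replicate 3 (0.0374), or shYAPTAZ replicate 1 (0.0328) or 3 (0.0173).

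GCLC and GCLM are the catalytic and modifier subunits of glutamate-cysteine ligase, which makes the first and limiting step of glutathione synthesis. Neither passed the test anywhere. GCLM (ENSG00000023909, chromosome 1, 93885199 to 93909456, minus strand; its core-bearing promoter is printed above) had 127, 140.0 and 213 CPM in shHIF2A, 182, 182 and 178 in shJUNs, 124, 148 and 221 in shYAPTAZ and 143, 161 and 179 in parental cells. In shHIF2A and shYAPTAZ the third library was the highest, and the ranges of all 4 groups overlapped. GCLM averaged 160.1 ± 46.6 in shHIF2A, 181 ± 2.06 in shJUNs, 164 ± 50.7 in shYAPTAZ and 161 ± 17.9 CPM in parental cells, and the test across the 4 groups gave an adjusted p of 0.842. Against parental cells the 95% intervals of the log2 difference were -0.40 to 0.39 in shHIF2A, -0.22 to 0.56 in shJUNs and -0.36 to 0.43 in shYAPTAZ.

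GCLC (ENSG00000001084, chromosome 6, 53497341 to 53616970, minus strand) rested on 40 to 146 counts per library. It read 16.8, 33.1 and 25.9 CPM in shHIF2A, 32.4, 22.97 and 21.01 in shJUNs, 23.6, 16.9 and 20.96 in shYAPTAZ and 13.96, 12.9 and 27.1 in parental cells, with every group overlapping every other. Its mean level was 25.3 ± 8.14 in shHIF2A, 25.5 ± 6.09 in shJUNs, 20.5 ± 3.39 in shYAPTAZ and 18.01 ± 7.92 CPM in parental cells (adjusted p = 0.485 across the 4 groups). Intervals of the log2 difference were wide, at -0.17 to 1.13 in shHIF2A, -0.15 to 1.14 in shJUNs and -0.48 to 0.83 in shYAPTAZ. Changes inside these intervals remain compatible with the data at this depth and spread.

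TXNRD1 encodes the cytosolic thioredoxin reductase, the selenoprotein that recharges thioredoxin with electrons of NADPH (ENSG00000198431, chromosome 12, 104215779 to 104350307, plus strand). It fell in shHIF2A and shYAPTAZ and was not called in shJUNs. Levels were 187, 242 and 252 CPM in shHIF2A, 445, 459 and 434 in shJUNs, 157, 181 and 262 in shYAPTAZ and 270.5, 378 and 424 in parental cells. All 6 libraries of shHIF2A and shYAPTAZ lay below the lowest parental one, and all 3 of shJUNs above the highest. These average to 227 ± 34.9 in shHIF2A, 446 ± 12.7 in shJUNs, 199.9 ± 55.3 in shYAPTAZ and 358 ± 78.7 CPM in parental cells. The fall was 1.58-fold in shHIF2A (log2 change -0.66 ± 0.18 SE, adjusted p = 0.014) and 1.78-fold in shYAPTAZ (-0.83 ± 0.18, adjusted p = 0.00168). The second passed with each library left out in turn, and the first was lost without shHIF2A replicate 1 (adjusted p = 0.0795), parental replicate 2 (0.0515) or parental replicate 3 (0.0762). In shJUNs the log2 difference from parental cells was 0.32 (95% interval -0.03 to 0.67, adjusted p = 0.233).

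In shJUNs against each of the other two knockdowns, TXNRD1 had the largest log2 difference of the 9 members tested. TXNRD1 was 1.97-fold higher in shJUNs than in shHIF2A (log2 difference 0.97 ± 0.18 SE, adjusted p = 0.0015). It was 2.22-fold lower in shYAPTAZ than in shJUNs (-1.15 ± 0.18, adjusted p = 0.000122). Both passed under every alternative run, those leaving out a library included. The shYAPTAZ and shHIF2A libraries overlapped (log2 difference -0.18, 95% interval -0.53 to 0.18).

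TXN encodes thioredoxin 1, the small protein that TXNRD1 reduces (ENSG00000136810, chromosome 9, 110243810 to 110256507, minus strand). Its libraries had 855, 923 and 1240.5 CPM in shHIF2A, 1108, 1159.8 and 1149 in shJUNs, 840.3, 994 and 1172 in shYAPTAZ and 735, 967 and 1017 in parental cells. Only the shJUNs libraries stood clear of the parental ones. TXN means were 1006 ± 206 in shHIF2A, 1139 ± 27.1 in shJUNs, 1002 ± 166 in shYAPTAZ and 906 ± 151 CPM in parental cells, and TXN passed neither the test across the 4 groups (adjusted p = 0.285) nor any pair. In shJUNs the log2 difference of 0.33 (95% interval 0.04 to 0.61, adjusted p = 0.121) passed in a fit of those 6 libraries alone (0.0384). Intervals in the other two knockdowns were -0.14 to 0.44 in shHIF2A and -0.14 to 0.43 in shYAPTAZ.

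SRXN1 encodes sulfiredoxin, which repairs overoxidised peroxiredoxins (ENSG00000271303, chromosome 20, 646615 to 653200, minus strand). It is listed at 0 counts in all 12 libraries. It shares 90.7% of its exon bases (2292 of 2528) on the same strand with ENSG00000270299, which is also at 0 counts in all 12. The sources used here do not say how reads that fall in more than 1 gene were counted, so these zeros do not show that SRXN1 was silent.

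ME1 encodes the cytosolic malic enzyme, which makes NADPH while turning malate into pyruvate (ENSG00000065833, chromosome 6, 83210402 to 83431051, minus strand). ME1 rose in shHIF2A and shYAPTAZ, and shJUNs overlapped parental cells. Libraries had 145, 196 and 149.6 CPM in shHIF2A, 108, 109.8 and 97.7 in shJUNs, 167, 143 and 159 in shYAPTAZ and 94.9, 99.8 and 116 in parental cells. ME1 averaged 164 ± 28.2 in shHIF2A, 105 ± 6.45 in shJUNs, 156 ± 12.4 in shYAPTAZ and 104 ± 10.96 CPM in parental cells. All 6 libraries of shHIF2A and shYAPTAZ were above all 6 of the other two groups. The rise was 1.58-fold in shHIF2A (log2 change 0.66 ± 0.16 SE, adjusted p = 0.00603) and 1.51-fold in shYAPTAZ (0.59 ± 0.16, adjusted p = 0.00912). Without shHIF2A replicate 2, the highest ME1 library, the first was not called (adjusted p = 0.0658). In shJUNs the log2 difference was 0.02 (95% interval -0.30 to 0.33, adjusted p = 0.954).

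Among knockdown lines, ME1 was 1.56-fold lower in shJUNs than in shHIF2A (adjusted p = 0.0149) and 1.49-fold higher in shYAPTAZ than in shJUNs (adjusted p = 0.0164). The first call ended without shJUNs replicate 1 (0.0615), 2 (0.0542) or 3 (0.0914) or shHIF2A replicate 2 (0.137), and the second without shJUNs replicate 1 (0.0527) or 3 (0.0896). In shYAPTAZ over shHIF2A the log2 difference was -0.07 (95% interval -0.38 to 0.24). ME1 and TXNRD1 thus separated shJUNs from the other two knockdowns in opposite directions: shJUNs had less ME1 and more TXNRD1 RNA.

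Across the 9 members tested, shHIF2A had 2 higher (HMOX1, ME1) and 1 lower (TXNRD1) than parental cells, where 9.84% and 8.8% of all 12301 genes tested were called (18.6% in either direction). shJUNs had 2 higher (HMOX1, NQO1), against 10.3% of all genes, and 0 lower, against 8.93% (19.3% in either direction). shYAPTAZ had 4 higher (HMOX1, NQO1, ME1, NFE2L2), against 13%, and 1 lower (TXNRD1), against 12.3% (25.3% in either direction). The libraries of 4, 5 and 5 members did not overlap the parental ones in shHIF2A, shJUNs and shYAPTAZ, where 36.1%, 39.5% and 36.2% of all genes did not. With edgeR the 0 members lower in shJUNs stayed 0 at an unadjusted p under 0.05, and DESeq2 and limma-voom also called 0. The median log2 change of the 9 was 0.23, 0.32 and 0.18 in the 3 knockdowns, against 0.0050, -0.0014 and 0.0220 over all genes tested. The test across all 4 groups called 6 of the 9, all but GCLC, GCLM and TXN, against 38.7% of all genes. These 3 comparisons share the parental libraries. Without parental replicate 2 or shYAPTAZ replicate 2 the shYAPTAZ count fell to 2 higher. Over all genes 1246 and 1281 were higher in these fits, against 1599 in the main fit.

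Between knockdown lines 3, 1 and 3 members were called. In shJUNs over shHIF2A 1 member was higher (TXNRD1; 4.36% of all genes) and 2 lower (ME1, KEAP1; 3.17%), 3 in either direction against 7.53%, and the libraries of 5 did not overlap, against 31.2% of all genes. In shYAPTAZ over shHIF2A 1 was higher (NQO1; 9.71%) and 0 lower (8.72%; 1 with DESeq2 and 1 at an unadjusted p under 0.05 with edgeR, KEAP1 in each case), with 18.4% of all genes called in either direction, and 1 member's libraries did not overlap (32.2%). In shYAPTAZ over shJUNs 1 was higher (ME1; 7.87%) and 2 lower (HMOX1, TXNRD1; 8.27%), 3 in either direction against 16.1%, and 3 did not overlap, against 33.3%. Of the 9 members, HMOX1 alone was called in the same direction in all 3 knockdowns against parental cells.

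**Figure D3:**
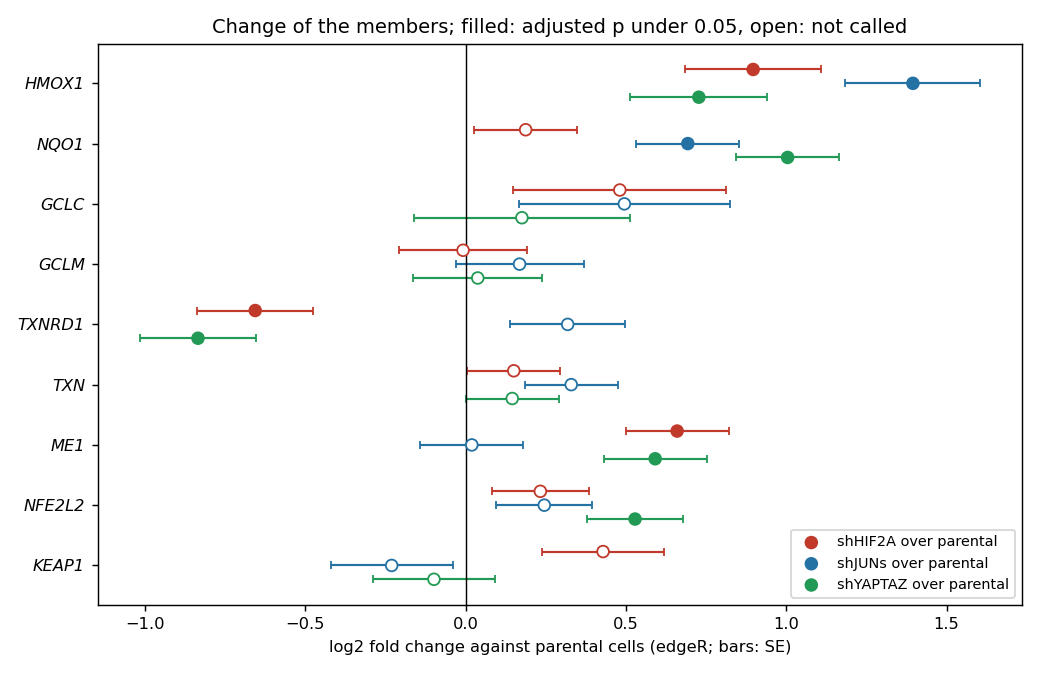
Log2 fold change of the 9 tested members in shHIF2A, shJUNs and shYAPTAZ, each over parental cells; bars are the SE of the edgeR fit, filled points passed an adjusted p of 0.05 and open points did not. HMOX1 is right of 0 and filled in all 3 comparisons, TXNRD1 is left of 0 and filled in 2, and GCLC, GCLM and TXN are open in all 3.

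Genes of some chromosomes were shifted as a group between these lines, so the members were set beside the median log2 change of the other tested genes on their chromosome. HMOX1 lies on chromosome 22, whose 289 other genes had a median log2 change of 0.08 in shHIF2A, 0.31 in shJUNs and 0.27 in shYAPTAZ. HMOX1 exceeded these medians by 0.81, 1.08 and 0.46. For NQO1 on chromosome 16 the medians of 532 genes were 0.04, 0.34 and 0.33 in the same order, and NQO1 exceeded them by 0.15, 0.35 and 0.68. TXNRD1 on chromosome 12 met medians of -0.01, 0.29 and -0.02 over 640 genes. Its falls in shHIF2A and shYAPTAZ were as large against the chromosome, at -0.65 and -0.82, and its difference in shJUNs shrank to 0.03. Between knockdowns, its 0.97 in shJUNs over shHIF2A stood 0.67 from the chromosome's median of 0.30, and its -1.15 in shYAPTAZ over shJUNs -0.78 from a median of -0.37.

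ME1 on chromosome 6 stood 0.71 above its chromosome's median in shHIF2A (-0.05) and 0.29 above it in shYAPTAZ (0.30), with 628 genes. In shYAPTAZ over shJUNs the chromosome's median was 0.40 and ME1 exceeded it by 0.18. The 28 tested neighbours of ME1 within 5 Mb had a median of 0.50 in that comparison, where ME1 itself was at 0.57. Against parental cells these neighbours had medians of -0.37 in shHIF2A and 0.11 in shYAPTAZ. NFE2L2 on chromosome 2 exceeded its median by 0.58 in shYAPTAZ, where the 845 genes had a median of -0.06. KEAP1 on chromosome 19 was -0.58 from the chromosome's median in shJUNs over shHIF2A. The part of these chromosome shifts in the members' changes was not tested.

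**Figure D4:**
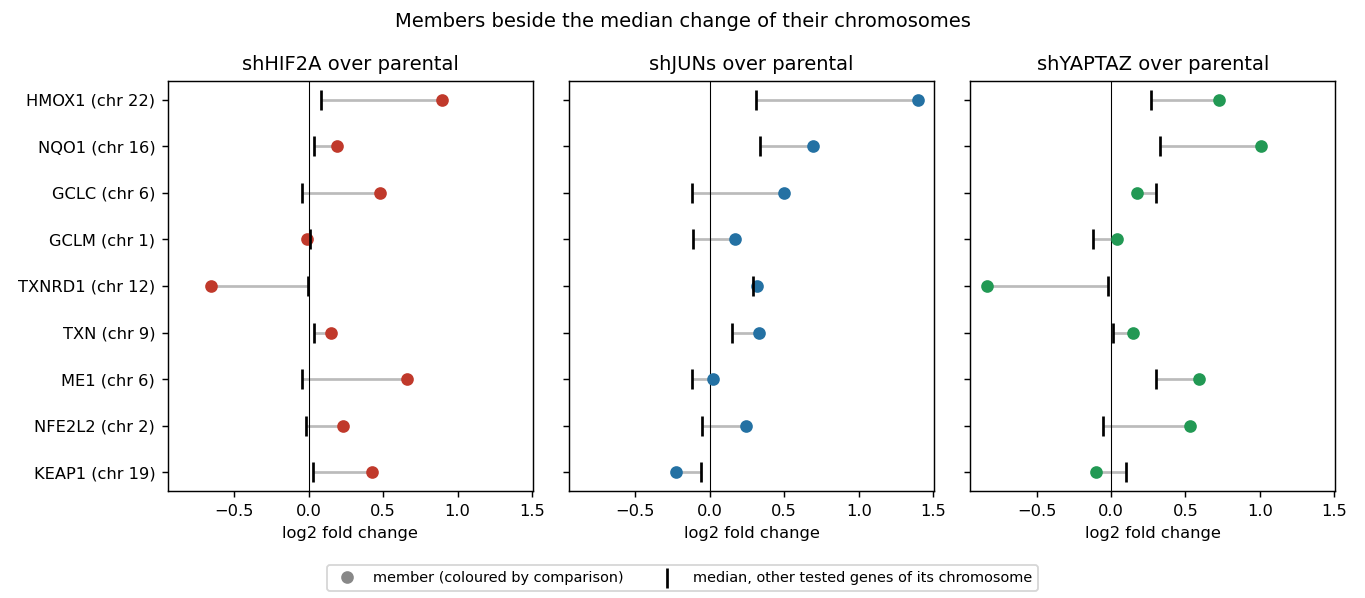
Log2 fold change over parental cells of each tested member (coloured point) and the median of the other tested genes on its chromosome (black tick), 1 panel for each knockdown. The tick of chromosome 22 sits at 0.31 and that of chromosome 16 at 0.34 in shJUNs, while HMOX1 and NQO1 lie further right.

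Beyond the members, 62 other genes were listed as NRF2 targets or related enzymes, of which 49 were tested. HMOX2, ME2, ME3 and TXN2 are among the related enzymes, so the counts are not of established targets alone. In shHIF2A 11 were higher (9.84% of all genes) and 7 lower (8.8%), with a median log2 change of 0.26. shJUNs had 15 higher (10.3%) and 7 lower (8.93%), with a median of 0.14, and shYAPTAZ 13 higher (13%) and 9 lower (12.3%), with a median of 0.06. Called genes of this list lay in both directions in every line. In shHIF2A 7 were higher without shHIF2A replicate 1, shHIF2A replicate 3 or parental replicate 2. Over all genes these fits called 943, 885 and 866 higher, against 1211 in the main fit. In shJUNs 9 were higher and 4 lower without parental replicate 2, and 3 were lower without shJUNs replicate 2 or 3. Over all genes the first fit called 952 higher and 854 lower, against 1271 and 1099 in the main fit. The others called 733 and 672 lower.

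Of the glutathione genes both subunits of the cystine importer fell, and conjugating enzymes moved in both directions. SLC7A11 and SLC3A2 form the cystine importer that supplies glutathione synthesis, and both fell in all 3 knockdowns. SLC7A11 was 47.8 ± 14.4 CPM in shHIF2A, against 136 ± 34.3 in parental cells, 2.85-fold lower with an adjusted p of 0.00153. It was 47.9 ± 23.8 CPM in the shYAPTAZ line (a fall of 2.79-fold with adjusted p = 0.00112) and 74.7 ± 4.76 CPM in the shJUNs line (a fall of 1.82-fold with adjusted p = 0.0404). The shJUNs call, chosen after its values were seen like the one in shYAPTAZ, was lost without shHIF2A replicate 2 (0.0555), shYAPTAZ replicate 2 (0.0590), any 1 shJUNs library (0.0981 to 0.132), parental replicate 2 (0.133) or parental replicate 3 (0.128). SLC3A2 was 196 ± 41.4 CPM in shHIF2A, against 441 ± 32.3 in parental cells, 2.25-fold lower with an adjusted p of 4.81e-05, and it reached 118 ± 27.1 CPM in shYAPTAZ (3.75-fold down; adjusted p = 3.87e-08). Its fall in shJUNs, to 283 ± 17.7 CPM (adjusted p = 0.00873), was lost without shJUNs replicate 3 (0.0523). MGST1, a membrane glutathione transferase, rose in shHIF2A and shJUNs: it was 782 ± 38.9 CPM in shHIF2A, against 446 ± 41.98 in parental cells, 1.75-fold higher with an adjusted p of 6.05e-05. MGST1 was 873 ± 77.8 CPM in the shJUNs line (a rise of 1.96-fold with adjusted p = 4.95e-06). In shYAPTAZ MGST1 was lower, at 318 ± 28.8 CPM (adjusted p = 0.0043; chosen after its values were seen). GSTP1, the abundant cytosolic glutathione transferase, was 17.8 ± 7.97 CPM in shYAPTAZ, against 288 ± 48.02 in parental cells, 15.7-fold lower with an adjusted p of 2.86e-11, and it was 389.9 ± 23.2 CPM in shHIF2A and 301 ± 24.7 in shJUNs, neither called. GSTM3, of the mu class of these enzymes, was 117 ± 16.2 CPM in shYAPTAZ, against 35.04 ± 9.45 in parental cells, 3.34-fold higher with an adjusted p of 4.10e-06, and ABCC3, an exporter of glutathione conjugates, 81.2 ± 18.9 CPM in shYAPTAZ, against 29.04 ± 1.34 in parental cells, 2.78-fold higher with an adjusted p of 1.57e-05. GSTM3 was also called higher in shHIF2A (log2 change 0.83) and shJUNs (0.68), and ABCC3 in shJUNs (1.23). In the glutathione group 3, 5 and 2 of 14 tested genes were higher in shHIF2A, shJUNs and shYAPTAZ, where 9.84%, 10.3% and 13% of all genes were. In the same order 2, 2 and 5 were lower, where 8.8%, 8.93% and 12.3% were.

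Of 15 tested genes listed with the quinone, aldehyde and xenobiotic enzymes, 4, 6 and 6 were higher in shHIF2A, shJUNs and shYAPTAZ (9.84%, 10.3% and 13% of all genes). In the same order 0, 2 and 1 were lower (8.8%, 8.93% and 12.3%). The 2 lower in shJUNs, named after their values were seen, were TRIM16 and TRIM16L, which are not quinone or carbonyl enzymes. The counts of the next 3 groups, each of 6 or 7 genes, stand beside the same shares of all genes. The 0 of edgeR in shHIF2A was 1 at an unadjusted p under 0.05 and 0 with DESeq2 and limma-voom. CBR1, a carbonyl reductase, was 249.9 ± 23.3 CPM in shYAPTAZ, against 118 ± 19.3 in parental cells, 2.13-fold higher with an adjusted p of 1.82e-05. CBR1 was also called higher in shHIF2A (log2 change 0.65) and shJUNs (0.64). Heme and iron genes had 2, 2 and 4 of 7 higher and 1 lower in each line. SLC48A1, a heme transporter, was 22.7 ± 1.36 CPM in shHIF2A, against 6.09 ± 1.85 in parental cells, 3.67-fold higher with an adjusted p of 0.000204. SLC48A1 was 27.9 ± 4.18 CPM in the shJUNs line (a rise of 4.51-fold with adjusted p = 2.80e-05). It was also called higher in shYAPTAZ (log2 change 2.06). HMOX2, the constitutive heme oxygenase, was 55.01 ± 14.1 CPM in shHIF2A, against 26.2 ± 1.79 in parental cells, 2.09-fold higher with an adjusted p of 0.00168, and BLVRB, a biliverdin reductase, 89.3 ± 14.6 CPM in shHIF2A, against 170.1 ± 14.8 in parental cells, 1.90-fold lower with an adjusted p of 0.000308. HMOX2 was also called higher in shJUNs (log2 change 1.48) and shYAPTAZ (0.83), and BLVRB lower in shYAPTAZ (-0.47). HMOX2 exceeded the medians of its chromosome 16 by 1.03 in shHIF2A, 1.14 in shJUNs and 0.50 in shYAPTAZ. Of 7 NADPH-supplying genes 1 was higher in each line and 3, 2 and 1 lower. TKT, the transketolase of the pentose phosphate pathway, was 510.4 ± 24.1 CPM in shJUNs, against 869.6 ± 228 in parental cells, 1.70-fold lower with an adjusted p of 0.00108. MTHFD2, a mitochondrial folate enzyme, was 314 ± 35.8 CPM in shJUNs, against 676 ± 41.5 in parental cells, 2.16-fold lower with an adjusted p of 0.000705. MTHFD2 was 194 ± 54.8 CPM in the shYAPTAZ line (a fall of 3.47-fold with adjusted p = 3.00e-06). MTHFD2 and TKT were also called lower in shHIF2A (log2 changes -1.01 and -0.63). The 6 peroxiredoxin and sulfur relay genes had 1, 1 and 0 higher and 1, 0 and 1 lower. Both counts of 0 were also 0 with DESeq2 and limma-voom, and at an unadjusted p under 0.05 in edgeR they were 1 higher in shYAPTAZ and 0 lower in shJUNs.

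Regulators of NRF2 were 23 genes, 22 of them tested. shHIF2A had 2 of them higher (9.84% of all genes) and 5 lower (8.8%), shJUNs 3 higher (10.3%) and 3 lower (8.93%), and shYAPTAZ 2 higher (13%) and 6 lower (12.3%). Their median log2 changes were -0.11, -0.15 and 0.08, against 0.0050, -0.0014 and 0.0220 over all genes tested. Without shHIF2A replicate 2 or parental replicate 1 no regulator was higher in shHIF2A, and 3 were lower without shHIF2A replicate 1 or 2 or parental replicate 3. Over all genes 828 and 772 were then higher (1211 in the main fit), and 832, 798 and 966 lower (1082). In shJUNs 1 regulator was higher without parental replicate 1, and in shYAPTAZ 1 without shYAPTAZ replicate 2. Over all genes 872 (main fit 1271) and 1281 (1599) were then higher. MAFF, a small MAF that can pair with NRF2, was 5.44 ± 5.00 CPM in shHIF2A, against 32.2 ± 4.05 in parental cells, 6.01-fold lower with an adjusted p of 0.00182. That fall rested on shHIF2A libraries of 2.61, 2.50 and 11.2 CPM, and without shHIF2A replicate 3 its log2 change of -2.59 became -3.64 (adjusted p = 0.000217). MAFF was 2.70 ± 0.618 CPM in the shJUNs line (a fall of 11.9-fold with adjusted p = 0.000113). It was also called lower in shYAPTAZ (log2 change -2.05). MAFG, another small MAF, was 52.3 ± 10.3 CPM in shYAPTAZ, against 101 ± 11.9 in parental cells, 1.91-fold lower with an adjusted p of 0.00115. MAFG was also called lower in shHIF2A (log2 change -0.61). SQSTM1, the p62 adaptor that draws KEAP1 into autophagy and is itself an NRF2 target, was 503 ± 8.59 CPM in shYAPTAZ, against 1075 ± 88.5 in parental cells, 2.14-fold lower with an adjusted p of 1.11e-07. It was 694 ± 50.3 CPM in the shJUNs line (a fall of 1.55-fold with adjusted p = 0.000201), and it shares 21.0% of its exon bases with a gene on the opposite strand. NFE2L1, the related factor NRF1, was 55.95 ± 8.38 CPM in shHIF2A, against 117 ± 7.76 in parental cells, 2.08-fold lower with an adjusted p of 0.00023. NFE2L1 was 67.4 ± 5.23 CPM in the shYAPTAZ line (a fall of 1.73-fold with adjusted p = 0.002). CSNK2A1, a kinase subunit of CK2, was 68.8 ± 4.22 CPM in shHIF2A, against 132 ± 22.7 in parental cells, 1.91-fold lower with an adjusted p of 0.00153. CSNK2A1 was also called lower in shYAPTAZ (log2 change -0.56).

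On the ligase side, RBX1 was 332 ± 13.8 CPM in shJUNs, against 214 ± 47.5 in parental cells, 1.55-fold higher with an adjusted p of 0.00773, and 333 ± 65.6 CPM in shYAPTAZ (1.56-fold higher, adjusted p = 0.00543), a call lost without shYAPTAZ replicate 2 (0.0577). RBX1 lies on chromosome 22, whose other genes had medians of 0.31 in shJUNs and 0.27 in shYAPTAZ. Its log2 changes of 0.63 and 0.64 exceeded these by 0.32 and 0.37. TRIM21, a ubiquitin ligase that acts on SQSTM1, was 14.7 ± 0.684 CPM in shYAPTAZ, against 4.05 ± 0.604 in parental cells, 3.63-fold higher with an adjusted p of 0.00254. CUL3 in shHIF2A (1.43-fold higher, adjusted p = 0.0436) lost its call with limma-voom (0.0539), no filter (0.121), thinned counts (0.0739) or the 6 libraries alone (0.0637). It was also lost without shHIF2A replicate 2 (0.122) or 3 (0.132), shYAPTAZ replicate 2 (0.0531), or any 1 parental or shJUNs library (0.0625 to 0.137). The rise of SMARCA4, a chromatin remodeller, in shHIF2A (1.55-fold, adjusted p = 0.0128) ended without parental replicate 1 (0.0705) or shHIF2A replicate 2 (0.0508). In shJUNs RXRA, a nuclear receptor, rose 1.56-fold (adjusted p = 0.0194), a call lost without shJUNs replicate 2 (0.112), parental replicate 1 (0.0506) or parental replicate 3 (0.0890). DPP3, a peptidase that binds KEAP1, also rose, 1.88-fold, in shJUNs (adjusted p = 0.0368), lost without shJUNs replicate 1 (0.130) or 3 (0.116), shHIF2A replicate 2 (0.0503) or parental replicate 1 (0.170). The fall of CSNK2A1 in shJUNs (1.62-fold, adjusted p = 0.0118) was lost without shJUNs replicate 3 (0.0767) or parental replicate 1 (0.0710). BACH1, the repressor that competes with NRF2 at the ARE, was 21.2 ± 3.99 CPM in shYAPTAZ, against 38.8 ± 13.8 in parental cells, 1.83-fold lower with an adjusted p of 0.0229, and was named after its values were seen. That call was lost in a fit of the 6 libraries (0.0652) and without shYAPTAZ replicate 3 (0.0899) or parental replicate 1 (0.166).

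Listed as other antioxidant enzymes were 24 genes that are not standard NRF2 targets, with 23 tested. The list includes TXNIP, an inhibitor of thioredoxin and not an enzyme. In shHIF2A 5 of the 23 were higher (9.84% of all genes) and 1 lower (8.8%). In shJUNs 6 were higher (10.3%) and 0 lower (8.93%), and in shYAPTAZ 5 higher (13%), TXNIP among them, and 2 lower (12.3%). The medians of the 23 were 0.27, 0.34 and 0.20 on the log2 scale, against 0.0050, -0.0014 and 0.0220 over all genes. The 0 in shJUNs was also 0 at an unadjusted p under 0.05 in edgeR, with DESeq2 and with limma-voom. Without shYAPTAZ replicate 2, 3 were higher in shYAPTAZ, where 1281 of all genes were, against 1599 in the main fit. MSRB1, a methionine sulfoxide reductase, was higher in every knockdown: 38.4 ± 3.81 CPM in shHIF2A (adjusted p = 0.00267), 46.8 ± 4.32 in shJUNs (0.000267) and 53.2 ± 6.14 in shYAPTAZ (4.50e-05), against 17.99 ± 5.02 in parental cells. On the log2 scale MSRB1 exceeded the medians of its chromosome 16 by 1.05, 1.03 and 1.22 in the same order. SOD2, the mitochondrial superoxide dismutase, was 289.7 ± 28.9 CPM in shHIF2A, against 154 ± 18.5 in parental cells, 1.88-fold higher with an adjusted p of 8.20e-05. SOD2 was 290.0 ± 13.8 CPM in the shJUNs line (a rise of 1.88-fold with adjusted p = 6.32e-05). TXNIP, which binds and blocks thioredoxin, was 99.03 ± 60.2 CPM in shYAPTAZ, against 19.1 ± 2.17 in parental cells, 5.13-fold higher with an adjusted p of 0.00404. PRDX2, a cytosolic peroxiredoxin, was 127 ± 15.6 CPM in shYAPTAZ, against 202 ± 7.39 in parental cells, 1.59-fold lower with an adjusted p of 0.00228. GLRX2, a mitochondrial glutaredoxin, rose 1.81-fold in shHIF2A (adjusted p = 0.00397), and GLRX5, which serves iron-sulfur clusters, 1.93-fold in shJUNs (0.00229), where the other genes of its chromosome 14 had a median of 0.39. GLRX5 was also called higher in shYAPTAZ (log2 change 0.60), below its chromosome's median of 0.89 there. In shYAPTAZ GPX8 rose 1.72-fold (adjusted p = 0.003) and GLRX3 fell 1.79-fold (0.00198). The 25 tested neighbours of GLRX3 within 5 Mb had a median of -0.54 there, against -0.08 for its chromosome 10 as a whole. In shYAPTAZ over shHIF2A these neighbours had a median of -0.55. The part of this shift in the fall of GLRX3 was not tested. GPX8 was also called higher in shHIF2A (log2 change 0.65). MSRB3 fell 1.78-fold in shHIF2A (adjusted p = 0.0148), a call lost without parental replicate 1 (0.0643) or shHIF2A replicate 2 (0.0840).

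**Figure D5:**
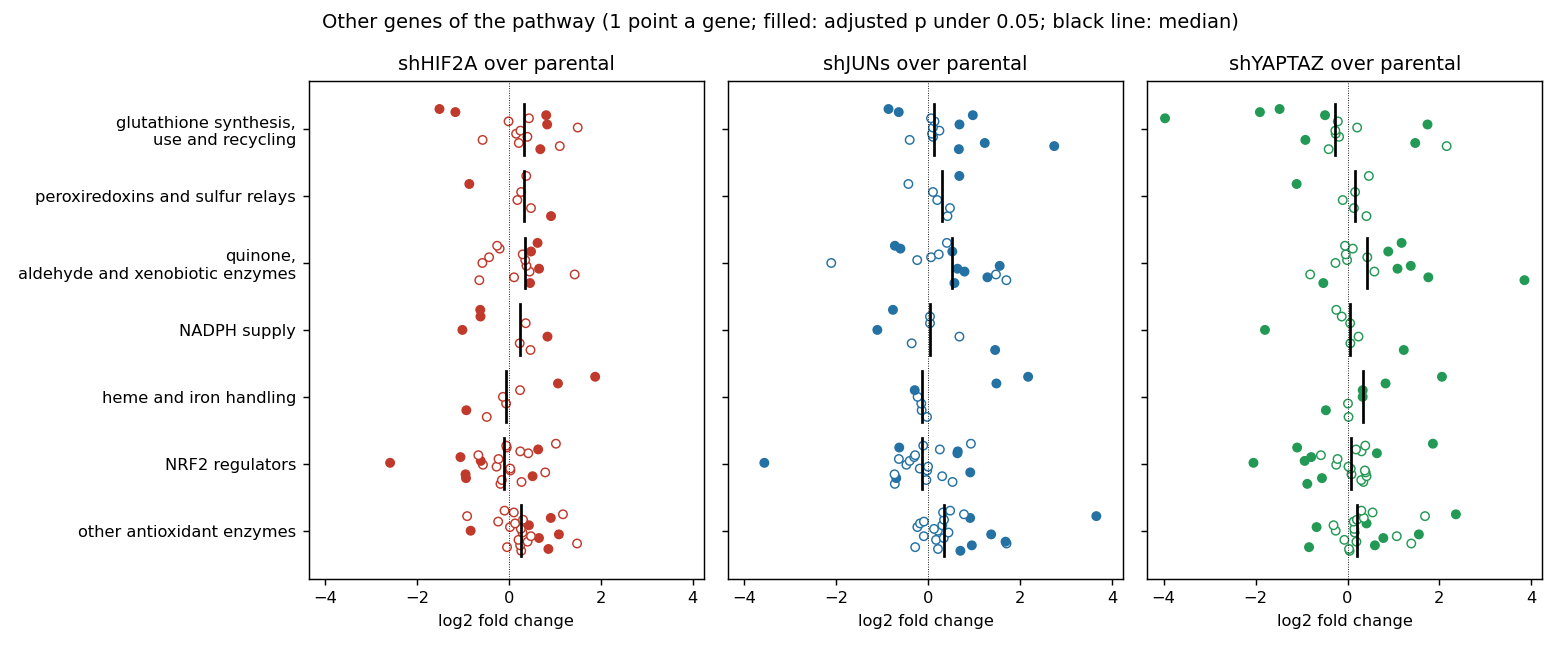
Log2 fold change over parental cells of the other listed NRF2 targets and related enzymes by group, of NRF2 regulators and of other antioxidant enzymes, 1 panel for each knockdown. Points are genes, filled where the adjusted p was under 0.05, and black lines are group medians. Filled points lie on both sides of 0 in the glutathione group of each panel, with GSTP1 far to the left in shYAPTAZ.

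Genes whose pattern was most like that of HMOX1 and NQO1 were sought among the 6786 genes that averaged 20 CPM or more, by the root mean square difference of centred log2 CPM over the 12 libraries. For HMOX1, whose own SD over the libraries was 0.53 on this scale, these were ZNFX1 (0.184), ACTG1 (0.186) and GSTK1 (0.187). For NQO1, with an SD of 0.46, they were GSPT1 (0.151), SIVA1 (0.166) and PSMC6 (0.175). The search did not take out the chromosome shifts described above, and their part in these likenesses was not tested. The same search over all 9 tested members found another member among the 3 closest genes once, TXN as the third closest to GCLM (0.129).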

How the data were processed

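RNA of 12 libraries of 786-O (4 lines, 3 libraries each) was measured by BRB-seq, per the labels' protocols. The authors deposited unnormalized counts for each gene. Trim Galore, STAR and hg38 were used, per the submitters' processing notes. Which program counted, whether it used strand, the annotation release and any collapse of molecular identifiers are not stated in the labels or headers. The columns have the layout of featureCounts, per the file headers. Of 62705 lines, 3 lines of 1 broken gene were left out, which gave 62702 genes, of which 62624 IDs matched a symbol. Counts of paralogs, of overlapping genes and of antisense genes are uncertain for that reason.

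The test was that of edgeR 4.0.16 (R 4.3.3): filterByExpr by group (12301 genes left), TMM scaling, 1 robust quasi-likelihood fit of all 12 libraries with a mean per group, and Benjamini-Hochberg adjustment over all genes tested, with calls at an adjusted p under 0.05. The common dispersion of 0.0628 equals a CV of 25.1%. Levels are CPM with TMM library sizes, errors of levels are SDs over 3 libraries, the SE of a log2 change is its size divided by the root of F, and 95% intervals are 1.96 SE each way. Floors in CPM cover counting error only. Replicates differed by more than counting error (chi-squared per degree of freedom of 4.91 to 20.2 over genes with at least 20 counts). Alternatives were RLE scaling, DESeq2 1.42.0, limma-voom (limma 3.58.1), no filter, a filter at a mean of 10 CPM, counts thinned to 2272459 per library, a replicate block, a fit of the 6 libraries compared, and leaving out each library. The fit was tested on simulated data. Promoter letters were searched with Python 3.11.15.

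The members and lists were chosen with earlier results of these data known. Genes named are the 10 members, the shRNA targets, the cell type markers, the 3 genes most like HMOX1 and NQO1, and, of each other list and knockdown, up to 3 called higher and up to 3 called lower with the smallest p. Other genes are said to be chosen after their values were seen. Calls of a named gene in further lines, given by its log2 change alone, were added after their values were seen, without their refits.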

Additional observations from a re-analysis of the deposited data

How the results depend on the processing

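Over 104 pairs of gene and comparison (54 of members, 50 of other named genes), 1960 refits kept the direction and the side of the threshold, 67 lost a call, 17 gained one and 35 turned the sign of a difference that was not called. No called member turned its sign. Replicate numbers are not shown to pair the libraries: the correlations of same-numbered libraries' deviations from their group means ran from -0.01 to 0.22. With a replicate block, members called higher in shJUNs over shHIF2A were 2 and members lower in shYAPTAZ over shHIF2A 1, regulators higher in shHIF2A were 4, and TXN in shJUNs (adjusted p = 0.0143), NQO1 in shJUNs over shHIF2A (0.00761) and KEAP1 in shYAPTAZ over shHIF2A (0.0318) passed. Members higher in shJUNs over shHIF2A were also 2 with DESeq2, limma-voom, no filter, a filter at 10 CPM, thinned counts and the 6 libraries alone, through NQO1. Thinned counts gave 1 member lower in shJUNs over shHIF2A and 1 in shYAPTAZ over shJUNs, where no filter also gave 1, and DESeq2 gave 1 lower in shYAPTAZ over shHIF2A. Regulators higher in shHIF2A were 1 with limma-voom, no filter and the 6 libraries, and antioxidant enzymes higher in shYAPTAZ 3 with the 6 libraries. Regulators higher in shYAPTAZ were 1 with a filter at 10 CPM, which left TRIM21 (355 counts over the 12 libraries) untested. Leaving out 1 library gave, for members, 1 to 2 higher and 0 to 1 lower in shHIF2A, 2 to 4 higher in shYAPTAZ, 1 to 2 higher and 0 to 2 lower in shJUNs over shHIF2A, 0 to 1 lower in shYAPTAZ over shHIF2A, and 0 to 1 higher and 1 to 2 lower in shYAPTAZ over shJUNs. For the other listed targets and related enzymes it gave 7 to 14 higher in shHIF2A and 9 to 17 higher and 3 to 7 lower in shJUNs. For regulators the ranges were 0 to 4 higher and 3 to 6 lower in shHIF2A, 1 to 3 higher in shJUNs and 1 to 2 in shYAPTAZ, and for antioxidant enzymes 0 to 1 lower in shHIF2A and 3 to 5 higher in shYAPTAZ. Calls over all genes moved too. In shHIF2A they ran from 772 to 1408 higher and 762 to 1279 lower (main fit 1211 and 1082). In shJUNs they ran from 846 to 1450 and 672 to 1251 (1271 and 1099). In shYAPTAZ they ran from 1246 to 1656 and 1163 to 1563 (1599 and 1514). The replicate block gave 1513 higher in shHIF2A. Between knockdowns, calls over all genes ran from 306 to 694 higher and 165 to 505 lower in shJUNs over shHIF2A (536 and 390). They ran from 725 to 1172 lower in shYAPTAZ over shHIF2A (1073). In shYAPTAZ over shJUNs they ran from 594 to 1082 higher and 683 to 1121 lower (968 and 1017). Uncalled differences near 0 turned: thinned counts gave -0.0287 for NFE2L2 in shJUNs over shHIF2A, -0.0275 for ME1 in shJUNs and 0.0096 for GCLM in shHIF2A. TXN in shYAPTAZ over shHIF2A was 0.0102 with RLE, 0.0102 with DESeq2, 0.0310 with limma-voom, 0.0024 thinned and 0.0044 with the 6 libraries. Leaving out 1 library, the log2 differences that turned ran as follows. In shHIF2A GCLM ran from -0.27 to 0.14 and TXN from -0.0280 to 0.26. In shJUNs ME1 ran from -0.0398 to 0.11. In shYAPTAZ KEAP1 ran from -0.28 to 0.0132, GCLC from -0.0213 to 0.60 and GCLM from -0.25 to 0.20. In shJUNs over shHIF2A NFE2L2 ran from -0.12 to 0.11 and GCLC from -0.21 to 0.27. In shYAPTAZ over shHIF2A ME1 ran from -0.15 to 0.0912, GCLM from -0.23 to 0.30 and TXN from -0.14 to 0.17. In shYAPTAZ over shJUNs KEAP1 ran from -0.0492 to 0.24 and GCLM from -0.42 to 0.0332. The cause of these shifts was not tested, other than that fewer libraries or counts enter such fits. Depth limits GCLC most among the tested members, with 40 to 146 counts per library.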

Other observations

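In shYAPTAZ against each of the other knockdown lines, glutathione genes outside the members also differed. Of 14 tested, 1 was higher (GSTM3) and 4 lower (ABCC1, GSTP1, MGST1 and SLC3A2) in shYAPTAZ over shJUNs, where 7.87% and 8.27% of all genes were called. In shYAPTAZ over shHIF2A 2 were higher (ABCC3 and GSTM3) and the same 4 lower, where 9.71% and 8.72% were called. In shJUNs over shHIF2A 1 was higher (ABCC3) and 0 lower with edgeR, where 4.36% and 3.17% of all genes were called. At an unadjusted p under 0.05 in edgeR 1 was lower, and DESeq2 and limma-voom each called 0 lower. In shYAPTAZ over shHIF2A edgeR called 0 other antioxidant enzymes higher (5 at an unadjusted p under 0.05, 1 with DESeq2 and 0 with limma-voom) and 5 of 23 lower (GLRX2, GLRX3, PRDX2, PRDX3 and SOD2), against 9.71% and 8.72% of all genes. These genes are those called, named after their values were seen.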
